A study of Mus musculus with 27 samples.

Results

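The 10 genes described here encode the main protein components of plasma lipoproteins: Apoa1, Apoa2, Apoa4, Apoa5, Apob, Apoc1, Apoc2, Apoc3, Apoe and Apom. They were listed by name and found by symbol among the 51826 gene identifiers of the tables. Expression was measured by RNA sequencing of whole livers, frozen and pulverised before RNA extraction, from wild-type BALB/c female mice at 7 stages of a reproductive cycle. NUL were mice that had not been pregnant (4 libraries) and LAC were mice at day 10 of lactation (3). ID2, ID4, ID6 and ID8 were mice 2, 4, 6 and 8 days after their pups were weaned (3, 4, 6 and 3 libraries), and REG were mice 4 weeks after weaning (4). Breeding took place at 10 to 12 weeks of age, litters were evened in size, weaning fell between days 10 and 14 of lactation, and ages were matched between stages. No other allele or agent was used, and each library carries its own title number. The labels do not say more on how the libraries of a stage are related. P-values set stage differences against the spread between these libraries, taken as independent, with that spread estimated over all stages.

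Apolipoproteins hold lipid in particles, dock them on receptors and steer the enzymes that act on them. The liver secretes apolipoprotein B with triglyceride as very-low-density lipoprotein (VLDL) and apolipoproteins A-I and A-II as the protein of high-density lipoprotein (HDL). The smaller C apolipoproteins and apolipoprotein E move between particles: C-II activates lipoprotein lipase, C-I and C-III slow the clearance of triglyceride-rich particles, A-V favours it, and E is a ligand of receptors that clear particles. In lactation the mammary gland takes up fatty acids from these particles for milk.

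Total expected counts ran from 41120650 to 75664540 per library, and 16428 genes passed the filter on low counts, all 10 apolipoproteins among them. Albumin held 9.33% of all counts in NUL and 16.2% in LAC on average. The summed TPM of 6 hepatocyte markers was at least 61991 in all 27 libraries. Exocrine pancreas markers summed to 2323 TPM in 1 library, ID2_31, and to at most 153 in the others. There were 7 libraries, 2 in ID2, 2 in ID4 and all 3 in ID8, with title numbers under 200, and what the number stands for is not given in the sources used here. Of the 27 libraries, 16 had 2 runs and 11 had 1. Those with 2 were 3 of 4 in NUL, 2 of 3 in LAC, 1 of 3 in ID2 and all 4 in ID4. The rest with 2 runs were 4 of 6 in ID6, 1 of 3 in ID8 and 1 of 4 in REG. Tissue was taken whole, so fewer cells of a type and less RNA per cell cannot be told apart.

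Of the 10 genes, 4 differed among the 7 stages: Apoa5, Apoe, Apoc2 and Apoa4 (adjusted p = 0.0016, 0.00577, 0.00895 and 0.0349, edgeR's quasi-likelihood test with Benjamini-Hochberg adjustment over all genes tested). The Apoa4 call was lost in 9 of 27 fits that left out 1 library, with the largest adjusted p (0.12, edgeR) without ID4_13. It was also lost in 6 of 11 other alternatives, 1 of them the stricter threshold of 0.01, with the largest adjusted p (0.172, edgeR) when the title number under 200 was a covariate. The joint Apoc2 call was lost in limma on log2(TPM + 1) (0.0551) and on log2(TPM + 0.1) (0.0511). The edgeR test called 26.97% of all genes. Apoc1 missed the threshold at an adjusted p of 0.0674, and the other 5, Apoa1, Apoa2, Apob, Apoc3 and Apom, had adjusted p-values from 0.228 to 0.779 in this edgeR test.

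Promoters are shown for reference for 3 of the 4 genes called in the joint test, Apoa5, Apoc2 and Apoe, each of which has a RefSeq window whose start site is also that of the GENCODE M21 gene. The Apoa4 window has another start site than the GENCODE gene and is not shown. Each line gives the 250 bases before the transcription start in RefSeq (GRCm38.p6), 5′ to 3′ on the gene's strand. The windows are chr9:46268383-46268632 (plus strand) for Apoa5, chr7:19677942-19678191 (minus strand) for Apoc2 and chr7:19699189-19699438 (minus strand) for Apoe. Capitals mark matches to the motifs searched.
Apoa5: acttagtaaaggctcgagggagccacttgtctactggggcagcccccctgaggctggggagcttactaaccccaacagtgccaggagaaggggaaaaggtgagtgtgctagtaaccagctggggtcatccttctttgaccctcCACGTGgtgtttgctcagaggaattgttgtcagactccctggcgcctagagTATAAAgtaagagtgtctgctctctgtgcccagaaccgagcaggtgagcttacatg
Apoc2: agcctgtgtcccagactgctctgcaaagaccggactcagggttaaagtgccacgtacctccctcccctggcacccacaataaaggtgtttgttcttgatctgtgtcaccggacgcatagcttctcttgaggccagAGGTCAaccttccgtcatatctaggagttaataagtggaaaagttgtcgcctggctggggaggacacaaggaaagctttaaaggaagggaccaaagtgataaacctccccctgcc
Apoe: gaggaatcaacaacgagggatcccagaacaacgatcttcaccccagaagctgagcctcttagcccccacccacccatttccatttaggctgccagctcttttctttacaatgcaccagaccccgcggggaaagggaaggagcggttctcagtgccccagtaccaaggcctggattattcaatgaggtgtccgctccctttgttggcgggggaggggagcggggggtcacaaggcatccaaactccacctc

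In these windows 7 motifs were searched on both strands. These were the TATA box TATAAA, the E-box CACGTG, the core TGACGT of the cyclic AMP response element, the HNF4 site CAAAGTCCA and the nuclear receptor unit AGGTCA. The unit was also searched as direct repeats, 2 units in the same direction with 1 or with 4 bases between them (DR1 and DR4), which contain the unit itself. The Apoa5 window held CACGTG at -107 to -102 and TATAAA at -56 to -51, counted from the start site. CACGTG occurred in 6.02% and TATAAA in 12.4% of the 32851 promoter windows of the table. The Apoc2 window held AGGTCA at -115 to -110, which 14.0% of all windows also hold. The Apoe window shown held no match. RefSeq gives further start sites for Apoe and Apoa5, whose windows are not shown. Of these, 1 Apoe window held TATAAA at -100 to -95 and at -96 to -91, on opposite strands. The other Apoa5 window overlaps the one shown and held the same CACGTG and TATAAA matches. Counted from that other start site they lie at -82 to -77 and at -31 to -26. Of the other motifs searched, TGACGT, CAAAGTCCA and the DR1 and DR4 repeats occurred in 6.47%, 0.384%, 0.0335% and 0.0152% of windows. The table gave windows for 8 of the 10 genes, Apoc1 and Apoc3 being without one. A match is a run of letters, and no binding was measured here.

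Levels are first given in TPM, which account for transcript length and allow genes to be set side by side. Averaged over the 7 stage means, Apoe stood at 46358 TPM, Apoa2 at 28378, Apoc1 at 19128, Apoc3 at 9652 and Apoa1 at 9337. The other 5 were rarer: Apoa5 1052 TPM, Apob 719, Apoa4 537, Apoc2 432 and Apom 254. The order was firm at the top, with Apoe above Apoa2 in 27 of 27 libraries and Apoa2 above Apoc1 in 26. In 2 places the order held in fewer libraries: Apoc3 exceeded Apoa1 in 14 libraries and Apoa4 exceeded Apoc2 in 18. Apob lay above Apoa4 in 24 libraries, Apoa5 above Apob in 26, and the remaining neighbours kept their order in all 27. Apoc1, Apoa2 and Apoc3 have effective lengths of only 160 to 288 bases, so their TPM values depend strongly on how that length was estimated.

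**Figure D1:**
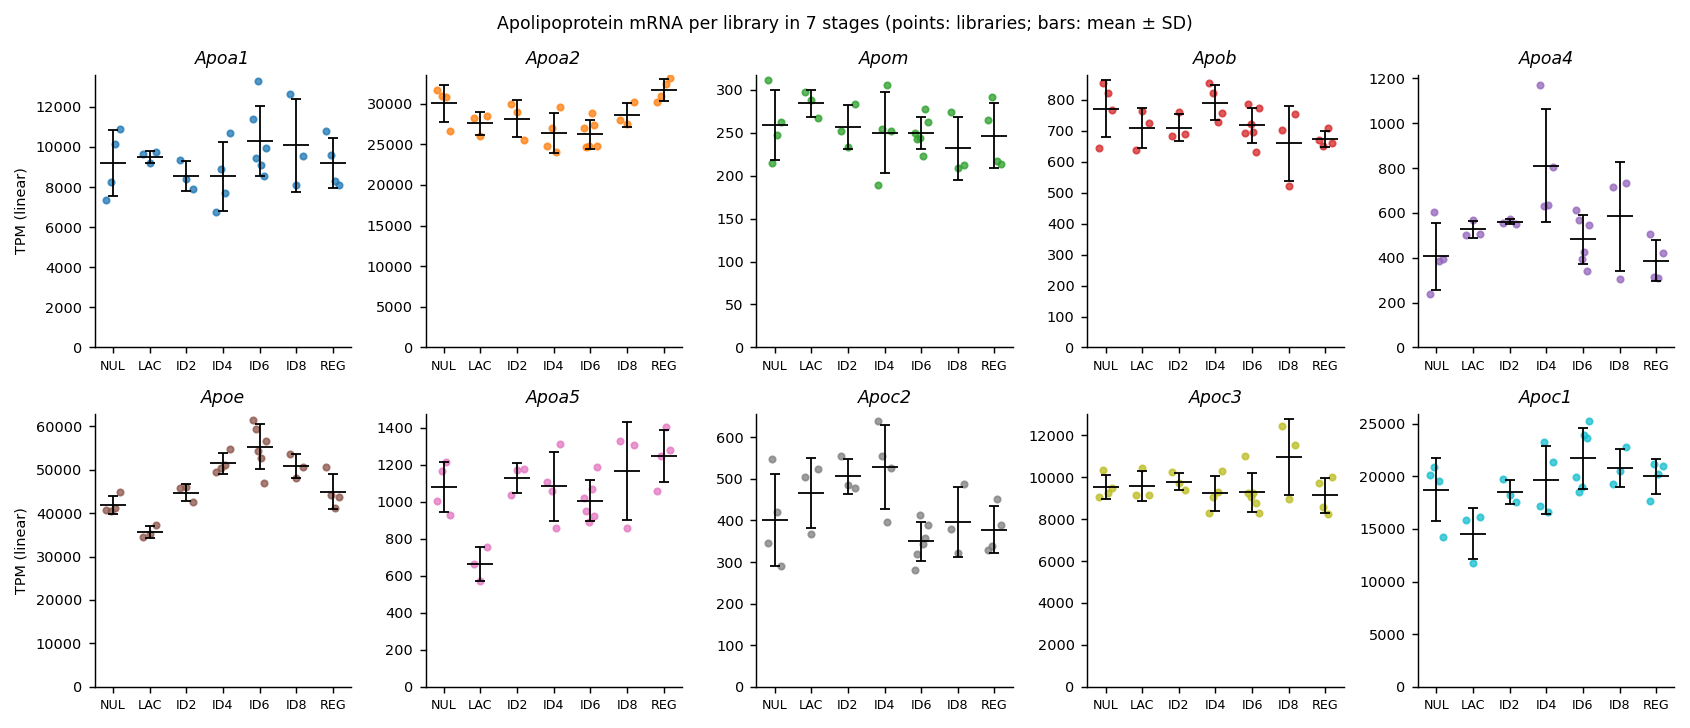
TPM of each of the 10 apolipoprotein genes (linear axis from 0) in every library, by stage; points are libraries and bars the mean ± SD. Apoa5 is lowest in LAC (570 to 754 TPM), Apoe is highest in ID6 (mean 55256 TPM), and Apoa4 has 1 ID4 library at 1170 TPM.

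Of the 10 genes, 5 (Apoe, Apoa2, Apoc1, Apoc3 and Apoa1) were among the 20 highest by TPM in every library. The summed TPM share of all 10 was 11.2% ± 0.254 (SD, n = 4) in NUL, 9.95% ± 0.428 (n = 3) in LAC, 11.3% ± 0.611 (n = 3) in ID2 and 11.9% ± 0.939 (n = 4) in ID4. It was 12.6% ± 0.534 (n = 6) in ID6, 12.4% ± 0.773 (n = 3) in ID8 and 11.8% ± 0.347 (n = 4) in REG. The 3 LAC libraries lay below all 4 NUL libraries, and the 6 ID6 libraries above all 4. The share is relative: in LAC, where it was lowest, albumin's share was highest.

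**Figure D2:**
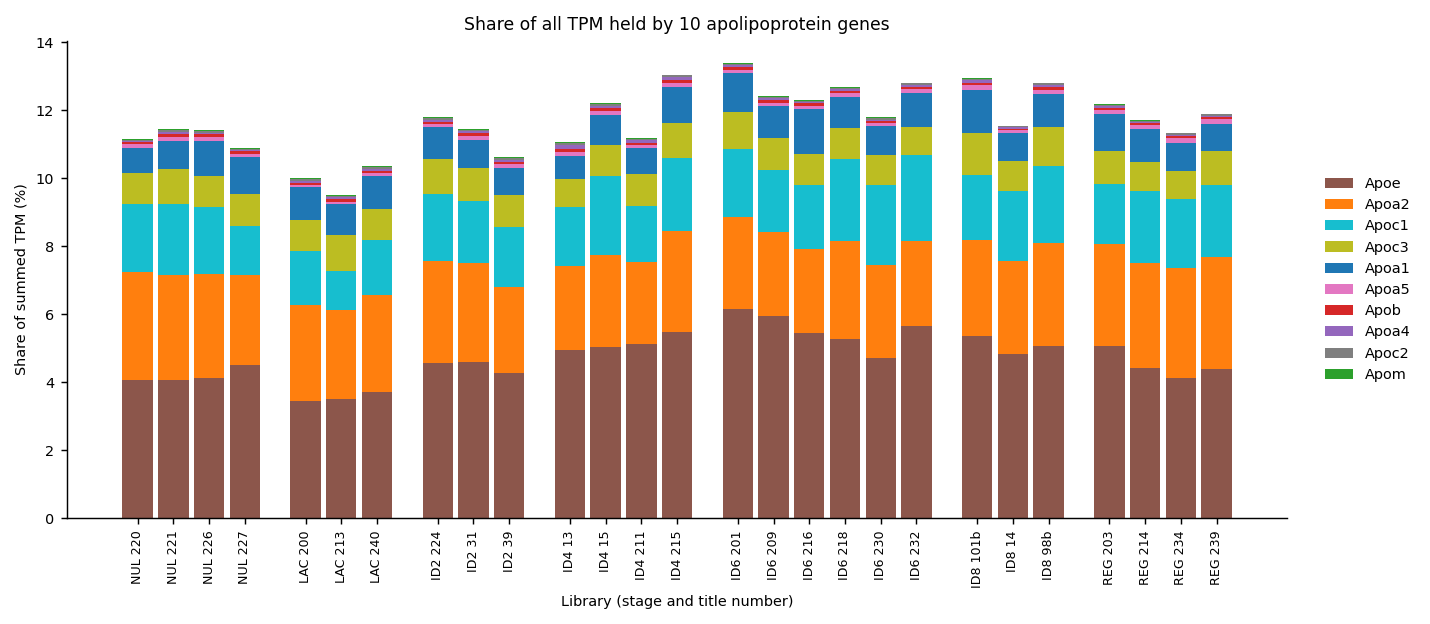
Share of summed TPM (%) held by the 10 apolipoprotein genes in each library, stacked by gene and grouped by stage. Apoe and Apoa2 make up most of each bar, and the 3 LAC bars are the shortest (9.50% to 10.4%).

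Lactation was compared with the nulliparous liver first. Apoa5, whose product favours the clearance of triglyceride-rich particles, was the 1 gene of 10 that passed the test, against 11.2% of all genes tested. Its scaled counts, in CPM (counts per 1000000) after TMM scaling, were 1396, 1592, 1568 and 1528 in NUL_220, NUL_221, NUL_226 and NUL_227. They were 957, 1052 and 967 in LAC_200, LAC_213 and LAC_240. All LAC libraries were below all NUL libraries, and the difference exceeded the spread within either stage. Apoa5 fell by 0.62 ± 0.15 (SE) on the log2 scale, to 0.652 times the NUL level, with an adjusted p of 0.00729 by edgeR's quasi-likelihood test with Benjamini-Hochberg adjustment. The median over the 10 genes was 0.10 on the log2 scale, and that over all genes -0.01.

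The other 9 apolipoprotein genes did not pass the test in lactation, with log2 fold changes from -0.21 to 0.48. The highest value was that of Apoa4, at 0.48 ± 0.31 (SE). Apoe, a receptor ligand made by hepatocytes and by macrophages, had the 3 lowest TPM values of the series in LAC (34455, 35112 and 37220), with NUL between 40574 and 44894. On TMM-scaled counts, Apoe differed between LAC and NUL by only -0.11 ± 0.13 on the log2 scale (adjusted p = 0.677, edgeR). Its TPM groups thus did not overlap while its scaled counts did. TPM carry no TMM scaling, and the TMM factors ran from 0.886 to 0.943 in LAC and from 1.01 to 1.07 in NUL. Apob, the structural protein of VLDL, stood at 0.05 ± 0.13 and Apoc3, the clearance inhibitor, at 0.15 ± 0.15 on the log2 scale.

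Weaning returned Apoa5 to the nulliparous range within 2 days. ID2_224, ID2_31 and ID2_39 gave 1467, 1601 and 1570 CPM of Apoa5, all above the 3 LAC libraries and inside or just above the range of NUL. Apoa5 rose between LAC and ID2 by 0.64 ± 0.16 (SE) on the log2 scale (adjusted p = 0.0069, edgeR's quasi-likelihood test with Benjamini-Hochberg adjustment). It was the 1 gene of the 10 called there, against 16.1% of all genes. The fall in LAC and the rise in ID2 both rest on the same 3 LAC libraries. Both calls held in all 27 fits that left out 1 library and in all 12 other alternatives; the largest adjusted p (edgeR) was 0.0357 for the fall, without LAC_200, and 0.0324 for the rise, with the title number under 200 as a covariate. Deposited effective lengths of Apoa5 ran from 1509 to 2072 bases between libraries, so its TPM and its counts order single libraries differently: LAC_213 had the lowest TPM and the highest CPM of its stage.

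A further 4 comparisons with LAC were added after the values had been seen. They share the LAC libraries with each other and with those above, so they are not separate evidence. Apoa5 was higher than in LAC by 0.77 in ID4, 0.55 in ID6, 0.95 in ID8 and 0.79 in REG on the log2 scale, with adjusted p-values of 0.000462, 0.00619, 0.000315 and 0.000719 (edgeR). Apoe was higher than in LAC by 0.51 in ID4, 0.49 in ID6 and 0.50 in ID8 (adjusted p = 0.00576, 0.00532 and 0.0175, edgeR). Apoc1, encoded next to Apoe, was higher by 0.39, 0.41 and 0.48 (adjusted p = 0.0272, 0.0161 and 0.02, edgeR). In all, 3 of 10 genes were called in ID4, 4 in ID6, 3 in ID8 and 1 in REG. Among all genes, 22.4%, 16.4%, 12.8% and 11.7% were called. The Apoc1 calls in ID4, ID6 and ID8 were each lost without LAC_213 (adjusted p = 0.15, 0.122 and 0.107, edgeR). The Apoc1 call was also lost without LAC_240, ID4_15 or ID4_215 in ID4 and without ID8_101b or ID8_98b in ID8. In limma on log2(TPM + 1) it was lost in ID4 (0.0851) and ID8 (0.0728), in the fit of only the 2 groups it was lost in ID4 (0.057), and with the title number under 200 as a covariate it was lost in ID8 (0.0648). The Apoe call in ID8 was lost without ID8_101b (0.09), LAC_200 (0.0572) or LAC_240 (0.056).

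Apoe had its lowest mean of scaled counts in LAC and its 3 highest means in ID4, ID6 and ID8. It stood at 23620, 22947, 23141 and 26256 CPM in NUL_220, NUL_221, NUL_226 and NUL_227. In ID4_13, ID4_15, ID4_211 and ID4_215 it stood at 29973, 29531, 31847 and 35084 CPM. All 4 ID4 libraries exceeded all 4 NUL libraries. The difference between ID4 and NUL was 0.40 ± 0.12 (SE) on the log2 scale, yet missed the threshold across all genes (adjusted p = 0.0572, edgeR). It was called in 2 of 12 other alternatives, with adjusted p-values from 0.0102 in DESeq2 to 0.261 in limma on log2(TPM + 1). In ID6 the lowest, median and highest values were 24114.5, 31271 and 38950.5 CPM, overlapping NUL, with a log2 difference of 0.38 ± 0.11 (adjusted p = 0.0862, edgeR); DESeq2 alone of 12 other alternatives called it (0.0159), and the largest adjusted p was 0.274, with only the 2 groups fitted. In ID8_101b, ID8_14 and ID8_98b Apoe stood at 35373, 28357 and 30829 CPM, all above NUL, with a log2 difference of 0.39 ± 0.13 (adjusted p = 0.183, edgeR) that no alternative called. In REG the difference from NUL was 0.09 ± 0.12 (adjusted p = 0.987, edgeR).

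Because ratios within a library do not depend on its scaling, Apoe was also set against Apoa2. The geometric mean of the Apoe to Apoa2 ratio of TPM was 1.39 in NUL, 1.29 in LAC and 1.59 in ID2. It was 1.95 in ID4, 2.10 in ID6, 1.78 in ID8 and 1.41 in REG. Every ID4 and ID6 library (1.71 or more) exceeded every NUL library (1.68 or less), while REG and NUL overlapped. This separation depended on the partner. The Apoe to Apoa1 ratio, the one named in the design, ran from 4.04 to 5.52 in NUL. It ran from 5.11 to 7.30 in ID4 and from 4.09 to 6.27 in ID6, both overlapping NUL. Apoa2 itself had means of 26391 TPM in ID4 and 26246 in ID6, against 30028 in NUL. A ratio shows unequal change of a pair and not which of them moved.

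Macrophages also make apolipoprotein E. Mean summed TPM of 8 macrophage and Kupffer cell markers was, like Apoe, lowest in LAC and higher in ID4 and ID6 than in NUL. In ID2 the marker mean lay below NUL (261 against 291 TPM), where Apoe lay above it (26723 against 23991 CPM). The summed TPM of these markers ran from 261 to 317 in NUL, 162 to 228 in LAC and 246 to 275 in ID2. It ran from 398 to 473 in ID4, 372 to 518 in ID6, 251 to 368 in ID8 and 276 to 328 in REG. All 8 markers differed among the stages by the edgeR test, against 26.97% of all genes, and none was at 0 in any library. Summed TPM of 5 sinusoidal endothelium markers also had its lowest mean in LAC (106). Its mean was 138 in NUL, 156 in ID4, 157 in ID6 and 157 in ID8. The part of either cell type in the Apoe values was not tested.

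Apoc2, the activator of lipoprotein lipase, fell between the fourth and the sixth day after weaning. It stood at 206, 172, 127 and 180 CPM in ID4_13, ID4_15, ID4_211 and ID4_215. The lowest, median and highest of the 6 ID6 libraries were 93.0, 100.5 and 131 CPM. The groups overlapped through the lowest ID4 library, ID4_211, and the highest ID6 library, ID6_216. Apoc2 fell by 0.72 ± 0.16 (SE) on the log2 scale (adjusted p = 0.00602, edgeR's quasi-likelihood test with Benjamini-Hochberg adjustment). Of the 10 genes, 2 were called between ID4 and ID6, both lower, against 8.53% of all genes called and 4.64% called lower.

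Before that fall Apoc2 had values above NUL without passing the test: 0.34 in LAC, 0.40 in ID2 and 0.49 in ID4 on the log2 scale (adjusted p = 0.287, 0.271 and 0.111, edgeR). Its level in ID6 was 350 TPM ± 47.0 (SD, n = 6), that in ID4 529 ± 100.5 (n = 4) and that in NUL 401 ± 112 (n = 4). ID6 was also below LAC, by 0.56 ± 0.17 (adjusted p = 0.0243, edgeR); this added comparison was lost without LAC_200 (0.119) or LAC_240 (0.104), with no filter on low counts (0.0575), and in limma on log2(TPM + 1), where the difference was -0.40 (0.123), and on log2(TPM + 0.1), where it was -0.41 (0.118). Apoc2 shares its exons with Gm44805, a readthrough gene spanning Apoc4 and Apoc2, which received 9.99% to 24.7% of their joint counts (median 15.5%). With both genes summed, a check added after the values had been seen, the fall from ID4 to ID6 was 0.65 ± 0.13 (adjusted p = 0.00362, edgeR).

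Apoa4, a protein of chylomicrons and HDL that the mouse liver makes along with the intestine, was the most variable of the 10 genes. Its highest library exceeded its lowest 4.90 times in TPM, against 1.37 to 2.46 times for the others. It stood at 313, 770, 497 and 497 CPM in NUL_220, NUL_221, NUL_226 and NUL_227, and at 1573, 838, 856 and 1127 in ID4_13, ID4_15, ID4_211 and ID4_215. All ID4 libraries were above all NUL libraries. Apoa4 rose in ID4 by 1.08 ± 0.29 (SE) on the log2 scale (adjusted p = 0.0377, edgeR's quasi-likelihood test with Benjamini-Hochberg adjustment), 1 gene of 10 called against 4.25% of all genes.

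Between ID4 and ID6 Apoa4 fell by 0.87 ± 0.26 (adjusted p = 0.0403, edgeR), with ID6 at a lowest, median and highest value of 404, 589 and 831 CPM, all below the ID4 libraries. Both Apoa4 calls lay near the threshold and were lost when certain single libraries were left out. Without ID4_13 the rise was 0.86 (adjusted p = 0.137, edgeR) and the fall -0.65 (0.18). Without NUL_220 the rise was 0.90 (0.102). In the other fits that lost a call the difference moved less: the rise was 1.07 without ID4_215 (0.0738) and 1.06 without NUL_226 (0.0942) or NUL_227 (0.089). The fall was -0.86 without ID4_215 (0.0865), and -0.91 to -0.78 without any of 5 ID6 libraries, all but ID6_201 (0.0618 to 0.0822). With the title number under 200 as a covariate the rise was 1.01 (0.129) and the fall -0.80 (0.157). Of 10 enterocyte markers, Lct and Fabp6 were at 0 in 27 libraries and Alpi and Sis in 26. Fabp2 (38.0 to 105.8 TPM) and Cdhr5 (17.3 to 32.25 TPM) were present in every library and made up nearly all of the list's sum. That sum was 80.1 to 135 TPM in NUL and 89.5 to 115 in ID4, overlapping. A part of intestinal cells in the Apoa4 values was not tested.

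**Figure D3:**
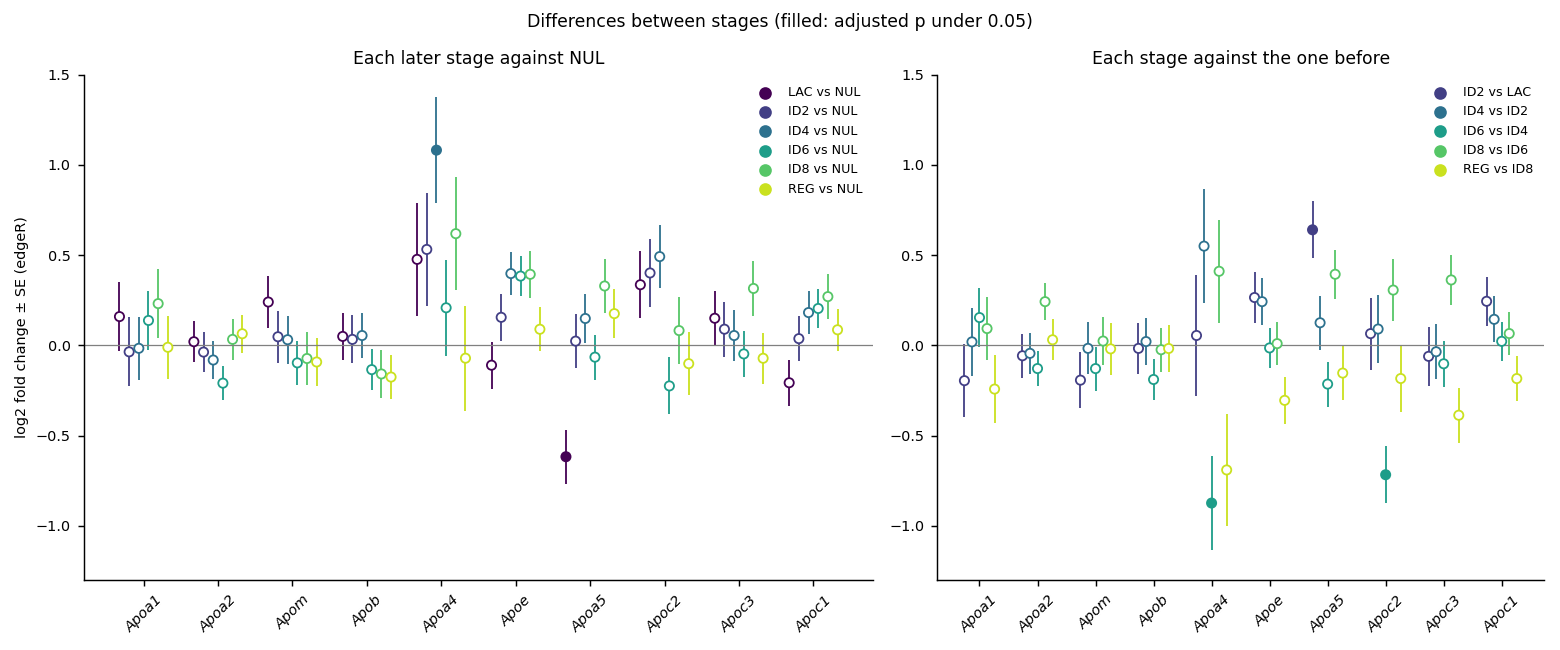
Log2 fold change ± SE (edgeR) of the 10 apolipoprotein genes for each later stage against NUL (left) and each stage against the one before (right); colours mark the comparison and filled points an adjusted p under 0.05. The filled points are Apoa5 in LAC (-0.62) and in ID2 against LAC (0.64), Apoa4 in ID4 (1.08) and in ID6 against ID4 (-0.87), and Apoc2 in ID6 against ID4 (-0.72).

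No apolipoprotein gene was called in the remaining comparisons. ID2, ID6, ID8 and REG were each set against NUL, ID4 against ID2, ID8 against ID6, and REG against ID8. Of all genes, 3.24%, 1.08%, 0.499%, 0.0852%, 1.49%, 4.12% and 0.0487% were called in these. At an unadjusted p under 0.05 edgeR gave 1, 2, 4, 0, 0, 3 and 3 of the 10, and 16.9%, 11.9%, 12.8%, 7.17%, 13.9%, 20.5% and 9.02% of all genes. DESeq2 called 1 in ID6 against NUL (Apoe) and 1 in ID8 against ID6 (Apoa5), and 0 in the others, while limma on log2(TPM + 1) called 0 in all 7. REG was thus not distinguished from NUL for any of the 10 by these tests, with log2 differences between -0.18 and 0.18 and standard errors between 0.10 and 0.29.

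The HDL proteins and Apob varied little between stages. Apoa2 ran from 26246 TPM ± 1778 (SD, n = 6) in ID6 to 31655 ± 1360 (n = 4) in REG, a ratio of 1.21 between stage means. Apoa1, the main HDL protein, ran from 8530 TPM ± 1704 (n = 4) in ID4 to 10297 ± 1759 (n = 6) in ID6. Within a stage its libraries differed as much as the stages did. Apom, a carrier of sphingosine-1-phosphate on HDL, ran from 231.7 TPM ± 36.8 (n = 3) in ID8 to 284 ± 15.5 (n = 3) in LAC. Apob ran from 660 TPM ± 122 (n = 3) in ID8 to 791 ± 57.4 (n = 4) in ID4, and Apoc3 from 9139 ± 853 (n = 4) in REG to 10982 ± 1822 (n = 3) in ID8. A difference missing the threshold does not show equal levels: Apoa1 and Apob had standard errors up to 0.20 and 0.14 on the log2 scale.

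Of the 10 genes, 7 lie in 2 clusters. On chromosome 9, Apoa1, Apoc3, Apoa4 and Apoa5 span 43.34 kb (GRCm38, 46228580 to 46271919), Apoc3 on the minus strand and the others on the plus strand. On chromosome 7, Apoc2, Apoc1 and Apoe span 27.61 kb (19671579 to 19699188), all on the minus strand, with Apoc4 between Apoc2 and Apoc1. Apoa2, Apob and Apom lie alone on chromosomes 1, 12 and 17.

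In LAC the log2 fold changes along the chromosome 9 cluster were 0.16 for Apoa1, 0.15 for Apoc3, 0.48 for Apoa4 and -0.62 for Apoa5, of which Apoa5 alone passed the test. The antisense predicted genes Gm47528 and Gm10680, which overlap Apoa4, had mean levels of only 0.373 and 0.107 TPM, too low for a fold change to be read. The next genes beyond Apoa5, Zpr1 and Bud13, stood at 0.06 and -0.15. On chromosome 7 in ID6, Apoc2 stood at -0.22 and Apoe at 0.38 against NUL, neither called. With stage means removed, Pearson r of log2 CPM over the 27 libraries ranged from 0.35 to 0.78 among the 6 pairs on chromosome 9, from -0.11 to 0.57 among the 3 pairs on chromosome 7, and from -0.63 to 0.82 among the other 36 pairs. These values describe libraries that share depth, RNA quality and scaling, and the highest, 0.82, joined Apoc3 and Apoe on different chromosomes.

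**Figure D4:**
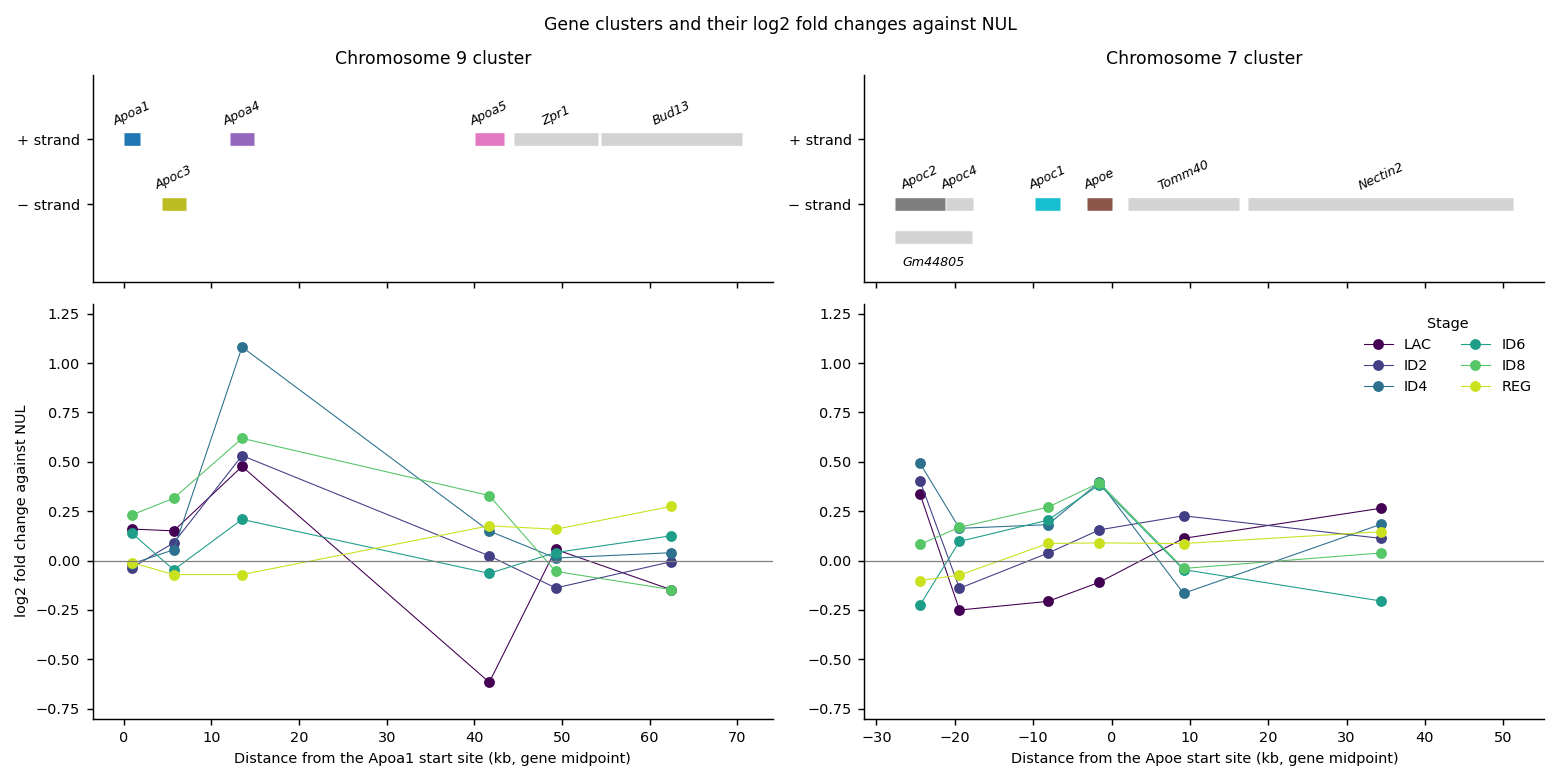
Apolipoprotein clusters on chromosomes 9 and 7 with the genes drawn to scale by distance from the start site of Apoa1 or Apoe (kb, upper) and log2 fold change of each gene against NUL by stage (lower; lines join genes of a stage only to guide the eye). Predicted genes (Gm names) are left out, except that Gm44805 is drawn in the map. In LAC, Apoa5 lies at -0.62 and the other 3 apolipoprotein genes of its cluster at 0.15 to 0.48.

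The genes whose log2 CPM followed each called apolipoprotein most closely over the 27 libraries were found among 10539 genes. For Apoe these were Proc (Pearson r 0.91, Spearman rho 0.91), Azgp1 (0.85, 0.81) and H2-D1 (0.83, 0.86). For Apoa5 they were Sirt3 (0.82, 0.78), Eif1 (0.82, 0.83) and Cnpy2 (0.81, 0.69). For Apoc2 they were Hpn (0.79, 0.78), Reep6 (0.78, 0.78) and Itfg1 (0.77, 0.79), and for Apoa4 Cp, encoding ceruloplasmin (0.79, 0.78), Bsg (0.78, 0.83) and F12 (0.75, 0.73). These libraries share scaling and stage, so the values are a description only. Of the remaining genes, Apoa2 lay nearest Uqcr11 (0.88, 0.87), Apoc3 Znhit1 (0.88, 0.89), Apoc1 Grcc10 (0.78, 0.71), Apoa1 Mrpl21 (0.77, 0.70), Apom Cops8 (0.77, 0.76) and Apob Fyco1 (0.76, 0.75).

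Genes that act on these proteins were taken from 5 lists and set between LAC and NUL in the same fit. Of 14 genes of HDL remodelling, lipases and their inhibitors, 2 rose and 2 fell in LAC. Lpl, encoding lipoprotein lipase, rose by 3.02 ± 0.31 on the log2 scale, from 7.54 to 21.8 CPM in the NUL libraries to 102 to 163 CPM in LAC (adjusted p = 6.52e-06, edgeR). Pltp, the phospholipid transfer protein, rose by 1.68 ± 0.22 (adjusted p = 3.89e-05, edgeR). Abcg1, a cholesterol exporter, fell by 0.66 ± 0.15 and Gpihbp1, which anchors lipoprotein lipase on capillaries, fell by 0.55 ± 0.14 (adjusted p = 0.00442 and 0.00844, edgeR). The list's median was -0.09, that of all genes -0.01, and 11.2% of all genes were called in this comparison.

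Of 12 tested genes of lipoprotein receptors and uptake, 3 rose and 3 fell in LAC (list median -0.07). Cd36, a fatty acid translocase, rose by 1.27 ± 0.20 and Lsr, a lipoprotein receptor, by 0.82 ± 0.11 (adjusted p = 0.000232 and 2.82e-05, edgeR). Sorl1, a sorting receptor, was called lower by counts (-1.20 ± 0.36) and Mylip, a ubiquitin ligase, fell by 0.54 ± 0.14 (adjusted p = 0.0268 and 0.0116, edgeR). With an offset for effective length the Sorl1 difference was -0.03 (adjusted p = 0.983, edgeR). Of 23 genes of particle assembly and export, 2 rose and 0 fell (list median 0.03), no larger a share than the 11.2% of all genes: Mttp, which loads lipid onto apolipoprotein B, by 0.34 ± 0.08, and Mia3 by 0.31 ± 0.10 (adjusted p = 0.00813 and 0.0455, edgeR). Apob itself did not pass the test, as given above.

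Among 27 transcription factors and cofactors known to act on apolipoprotein genes, 0 rose and 3 fell in LAC (list median -0.12), a share called close to the 11.2% of all genes. Creb3l3, a liver-enriched factor of triglyceride metabolism, fell by 0.53 ± 0.17, Ppargc1b fell by 0.87 ± 0.28 and Nr2f2 fell by 0.41 ± 0.12 (adjusted p = 0.0369, 0.0462 and 0.0207, edgeR). Creb3l3 stood at 270 to 338 CPM in the NUL libraries and at 202 to 223 in LAC, without overlap. Of 17 tested further apolipoproteins and lipoprotein-bound proteins, 1 rose and 3 fell (list median -0.25). Pon3, an HDL-bound lactonase, rose by 0.49 ± 0.07 (adjusted p = 5.23e-05, edgeR). Apon and Saa4 fell by 0.50 ± 0.14 and 0.63 ± 0.16 (adjusted p = 0.0155 and 0.0112, edgeR). Apol7c was also called lower, at means of only 0.0288 CPM in LAC and 0.142 in NUL.

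Of the 17 genes of these lists named for LAC, 6 (Lpl, Pltp, Abcg1, Cd36, Lsr and Pon3) were called in all 27 fits that left out 1 library and in all 12 other alternatives. The calls of the other 11 were each lost in at least 1 fit that left out a library. Without LAC_213, 10 of them were lost (adjusted p from 0.0545 to 0.248, edgeR), and Apon was lost without NUL_221, LAC_200 or LAC_240. Ppargc1b and Mia3, near the threshold, were lost in 17 and 11 of the 27 fits.

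**Figure D5:**
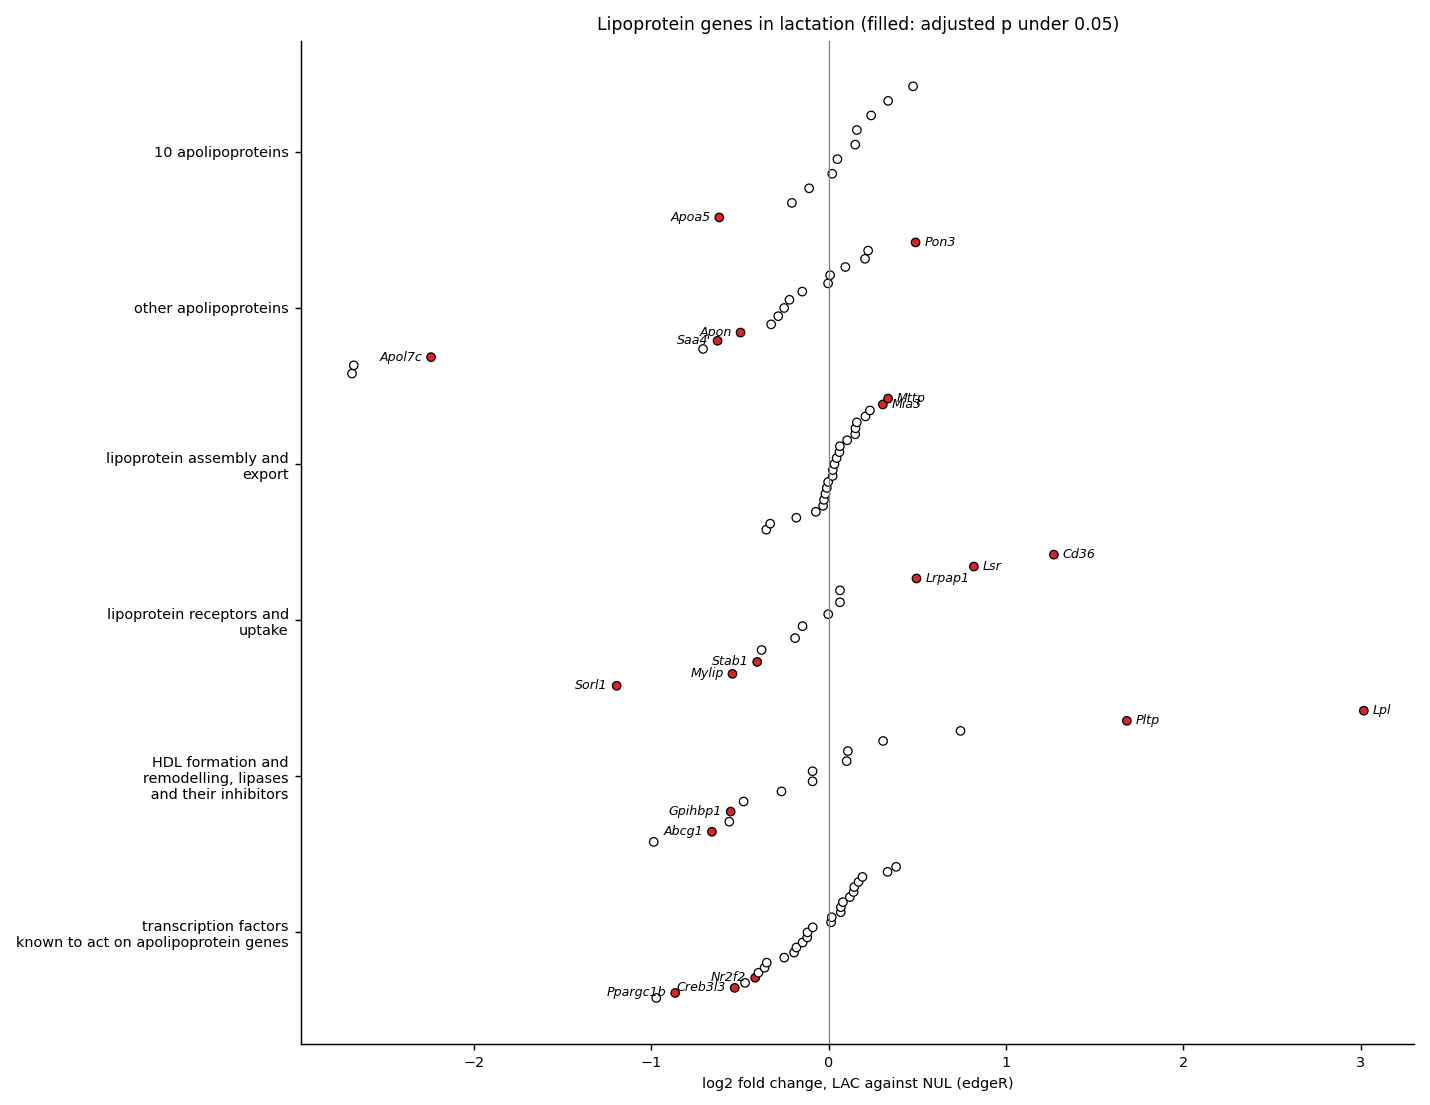
Log2 fold change between LAC and NUL (edgeR) for the 10 apolipoproteins and 5 lists of related genes, 1 point per tested gene, ordered within each list; filled and named points have an adjusted p under 0.05. Lpl (3.02) and Pltp (1.68) lie farthest to the right, and Apoa5 (-0.62) is the filled point among the 10.

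The same lists were set between ID4 and NUL, where 4.25% of all genes were called. Of the receptor list 4 genes rose and 0 fell: Cd36 rose by 0.93 ± 0.19 and Scarb1, an HDL receptor, by 0.71 ± 0.12 (adjusted p = 0.00465 and 0.000994, edgeR). Of the HDL and lipase list 4 rose and 1 fell: Lpl rose by 1.43 ± 0.29 and Lipg, the endothelial lipase, fell by 1.64 ± 0.28 (adjusted p = 0.00547 and 0.00115, edgeR). Srebf2, a sterol-regulated factor, fell by 0.79 ± 0.11 (adjusted p = 5.28e-05, edgeR). Lpl was not called with only the 2 groups fitted (0.0924). Of the 27 genes of the transcription factor list 0 rose and 2 fell, near the share of all genes, and of the assembly list 0 of 23 were called.

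Of the 17 further apolipoproteins and lipoprotein-bound proteins, 5 rose in ID4 and 0 fell, with a list median of 0.29 against -0.02 for all genes. The serum amyloids Saa1 and Saa2, acute-phase proteins carried on HDL, rose by 4.19 ± 0.86 and 4.01 ± 0.88 (adjusted p = 0.00717 and 0.0114, edgeR). These genes are close copies, between which reads may be divided. Both overlapped NUL: NUL_221 had 88.5 CPM of Saa1, above ID4_215. Without ID4_13 the log2 differences were 3.48 for Saa1 (0.028) and 3.01 for Saa2 (0.0518, no longer called), and without NUL_221 they were 5.53 and 5.37. Neither was called with only the 2 groups fitted (0.153 and 0.171), and Saa2 was not called with the title number under 200 as a covariate (0.0602). Between ID4 and ID6, 8 of the 17 fell, against 4.64% of all genes called lower, and Saa1 fell by 3.64 ± 0.72 (adjusted p = 0.00387, edgeR), or by 2.93 without ID4_13 (0.0244). None of them rose. The libraries of ID4 were uneven in Saa1, at 1242, 187, 807 and 58.6 CPM in ID4_13, ID4_15, ID4_211 and ID4_215. ID4_13, the library with the most Apoa4, also had the most Saa1, while ID4_215, second in Apoa4, had the least of its stage.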

How the data were processed

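The deposited tables, 1 per library, hold RSEM expected counts, TPM and effective lengths per Ensembl gene, per the file headers. The submitters' processing notes name STAR 2.6.1a, RSEM 1.3.1 and the builds mm10 and GRCm38; annotation, trimming and strand setting are not given in the sources used here. Symbols and positions came from GENCODE M21 (GRCm38), which held 51633 of 51826 identifiers.

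Expected counts, which share reads among overlapping genes and isoforms, were rounded, filtered (filterByExpr) and TMM-scaled. One edgeR 4.0.16 quasi-likelihood model with the 7 stages, fitted over all 27 libraries in R 4.3.3, gave 11 comparisons and a joint test, and 4 comparisons with LAC were added after the values had been seen. P-values were Benjamini-Hochberg adjusted over 16428 genes, and "called" means an adjusted p under 0.05. TPM deposited by the authors were used for levels, shares and ratios. DESeq2 1.42.0, limma 3.58.1 on log2(TPM + 1) and log2(TPM + 0.1), other scalings, filters and covariates, and leaving out each library were alternatives. They were extended to the named list genes after the values had been seen. The fit was also run on simulated data in which all genes had the same dispersion. Such data do not test it for genes of larger spread or for a shift like that of albumin. No pair of libraries of a stage agreed within sampling noise (smallest chi-square 42.4 per gene). The biological coefficient of variation was 0.190.

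The 10 genes and the lists were chosen with earlier results of these data known; 3 listed genes are not reported here and were left out of the lists' counts. All 10 are named; per list, up to 4 genes called in LAC against NUL and up to 2 per other comparison with the largest change; and the genes with the highest Pearson r to each of the 10 (mean log2 CPM of 1 or more). Exons of overlapping genes (Gm44805 for Apoc2, antisense genes for Apoa4 and Apoa5) make their counts less certain.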

Additional observations from a re-analysis of the deposited data

Results flagged for a closer look

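In 44 sets of 4 or 6 libraries of a stage (each of the 10 genes and their summed share), 3 had a highest or lowest library far from its nearest neighbour relative to the whole range (Dixon's criterion); chance marks about 1 set in 20. In NUL_227, Apoa2 was 26691 TPM, with the other 3 NUL libraries at 30837 to 31651. In the same library Apoe was 44894 TPM, with the others at 40574 to 41072. In ID6_201, Apoc3 was 11030 TPM, with the other 5 ID6 libraries at 8310 to 9264.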

How the results depend on the processing

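The Apoa5 calls in LAC against NUL and in ID2 against LAC, the Apoc2 call in ID6 against ID4, and the joint calls of Apoa5 and Apoe held in every alternative run; the joint Apoc2 call was lost in both limma fits on TPM (adjusted p = 0.0551 with a pseudocount of 1). No called difference changed sign in any alternative. In ID4 against NUL, where 1 of the 10 genes was called, DESeq2 called 3, an effective length offset or a clock gene component as covariate 2, and no filter, the title number as covariate, an adjusted p under 0.01 or a fit of only the 2 groups 0; leaving out 1 library gave 0 to 2. In ID6 against NUL, DESeq2 called 1 and leaving out 1 library gave 0 to 1 (1 without ID6_230). In ID6 against ID4, 1 in place of 2 was called with no filter, limma on log2(TPM + 1) and log2(TPM + 0.1), the title number, number of runs or clock component as covariate and an adjusted p under 0.01; leaving out 1 library gave 1 to 2. In ID8 against ID6, DESeq2 called 1 and leaving out 1 library gave 0 to 2 (2 without ID6_201). At an adjusted p under 0.01, 2 genes in place of 4 were called in ID6 against LAC and 1 in place of 3 in ID8 against LAC, where leaving out 1 library gave 1 to 3; in ID4 against LAC it dropped Apoc1 (2 in place of 3). Both limma fits also dropped Apoc2 in ID6 and Apoc1 in ID4 and ID8 against LAC, and no filter dropped Apoc2 in ID6 against LAC. In the joint test, limma on log2(TPM + 1) called 2 in place of 4. Apart from the stricter thresholds and smaller fits, the cause was not tested. Spearman in place of Pearson correlation kept 0 to 3 of the 3 genes most like each of the 10. No paired analysis was possible because no title number occurs in more than 1 group.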
